A study of Mus musculus with 12 samples.

Results

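The genes described here encode the myosin motors, the tropomyosins that coat actin filaments, and the proteins that crosslink those filaments or tie them to sites of adhesion. They were chosen by gene name: the myosin heavy chains (Myh), the myosin light chains (Myl), the unconventional myosins (Myo), the tropomyosins (Tpm), the alpha-actinins (Actn), filamins A to C, both talins and vinculin. The array carried 117 probe sets, each a group of short probes for a transcript, that the platform annotation gave to 1 such gene, and they belonged to 60 of the 18193 genes measured. Each gene was represented by its brightest probe set over all arrays, and 49 of the 60 were above background on enough arrays to be tested, among 14990 genes tested in all.

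RNA came from mouse pancreas in 3 groups of 4 arrays, lettered A to D. yDucts were duct-like organoids, hollow epithelial cultures in Matrigel, grown from R26-rtTA; tetO-YAP S127A acini in which doxycycline had switched on a YAP that resists inhibition by the Hippo pathway. They were later kept without doxycycline. Ducts were organoids grown from native duct fragments in the same Matrigel and pancreatic organoid medium, and Acini were freshly isolated. The labels call the arrays biological replicas, name no animals or cultures behind them and give no genotype for Ducts or Acini, and the p-values below rest on how far such arrays differ. Acini differed from both organoid groups in cell type, culture and the other cells present together, and these cannot be told apart.

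Non-muscle myosin II is the motor that pulls on actin in animal cells. A pair of heavy chains carries essential and regulatory light chains, and phosphorylation of the regulatory chain lets the molecules assemble into filaments. Tropomyosins influence which motors an actin filament accepts, alpha-actinins and filamins hold filaments together, and talin and vinculin carry the tension to integrins. The YAP protein tends to enter the nucleus when such tension is high and binds DNA through TEAD factors, while many actin and myosin genes answer to the serum response factor, which binds a sequence called the CArG box. Acinar cells are secretory cells with an apical actin web, whereas duct cells form a lining around a lumen.

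The arrays matched their labels in broad outline. All 7 acinar marker genes measured were lower in yDucts and in Ducts than in Acini, and 3 of 5 duct markers were higher in each. The 7 fibroblast, 7 endothelial and 6 endocrine markers were all lower in both organoid groups. Of all genes tested, 32.6% were called lower in yDucts and 33.1% in Ducts, and 43.6% and 42.7% higher. The summed fibroblast signal, on the log2 scale, was 6.40 to 6.47 in yDucts, 6.36 to 6.60 in Ducts and 11.8 to 12.7 in Acini. In such bulk RNA, fewer cells of a type and less RNA per cell cannot be told apart. The lower end of the scale was not level either: the 30th percentile of an array, used here as the background, lay at 3.20 ± 0.01 in yDucts, 3.21 ± 0.02 in Ducts and 3.72 ± 0.06 in Acini (SD, n = 4 each). Of the markers, Cela2a, Col3a1, Pdgfra, Pecam1, Emcn, Tek, Gcg and Iapp were above background on Acini arrays only. They entered the test through the group where they were high, so their lower calls were largely set by that filter and are not counted as support.

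Against Acini, the members went in both directions in yDucts. Of the 49 tested, 20 were called higher and 16 lower at an adjusted p under 0.05, and 13 were not called. Over all genes tested, 76.2% were called in this comparison, 43.6% higher and 32.6% lower, so the share of members called was close to that of any gene on the array. The median log2 difference was 0.315 over the members and 0.24 over all genes. Differences of at least 2-fold were found for 17 members called higher and 11 called lower, where 50.5% of all genes were called at that size, 32.5% higher and 18% lower. Values of the 2 groups did not overlap for 34 members, against 71.7% of all genes.

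Ducts, set against the same 4 Acini arrays, gave 22 members higher, 18 lower and 9 not called, where 75.8% of all genes were called, 42.7% higher and 33.1% lower. The median log2 difference was 0.30 over the members and 0.21 over all genes. At 2-fold or more, 18 members were higher and 11 lower, where 49.7% of all genes passed at that size, 31.7% higher and 17.9% lower. For 34 members the groups did not overlap, and 64.5% of all genes did the same. Since yDucts and Ducts share their Acini controls, values of both are given side by side below and no overlap between the comparisons is counted as a result.

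These counts moved with the scaling of the arrays. The median of all genes in yDucts minus Acini was -0.16 after quantile normalization, -0.15 after cyclic loess and 0.46 when array medians were set equal. The members called higher and lower were then 16 and 17, 16 and 18, and 24 and 12, in that order. Over all genes, the shares called higher and lower moved too, at 29.2% and 35.9%, 27.1% and 36%, and 48.3% and 26.3%. In Ducts minus Acini, the all-gene medians were -0.15, -0.17 and 0.42. The members called higher and lower there were 15 and 18, 15 and 18, and 23 and 16. The shares of all genes were 28.4% and 36.1%, 25.8% and 36.6%, and 47% and 26.8%. Of the 20 members called higher in yDucts, 15 were called higher under all 3 scalings and the exceptions were Actn4, Myo1d, Myo1e, Myo5b and Tln1. Of the 20 members named here that were called higher in Ducts, 15 kept the call and the exceptions were Actn4, Myh14, Myo1d, Myo1e and Myo5b. The calls that were kept were smaller: cyclic loess reduced 12 of the 15 in yDucts and 13 of the 15 in Ducts by more than 1.5 times, with medians of 1.45 in yDucts and 1.09 in Ducts where the deposited values gave 2.33 and 2.02. In yDucts it left Actn1 at 1.24, Myl12a at 0.92 and Tpm3 at 0.62. Of the named members called lower, 9 of 14 in yDucts and 11 of 16 in Ducts kept the call. Actn2, Actn3, Myh1 and Myo1a lost it in both, Myl6 in yDucts and Myl9 in Ducts.

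**Figure D1:**
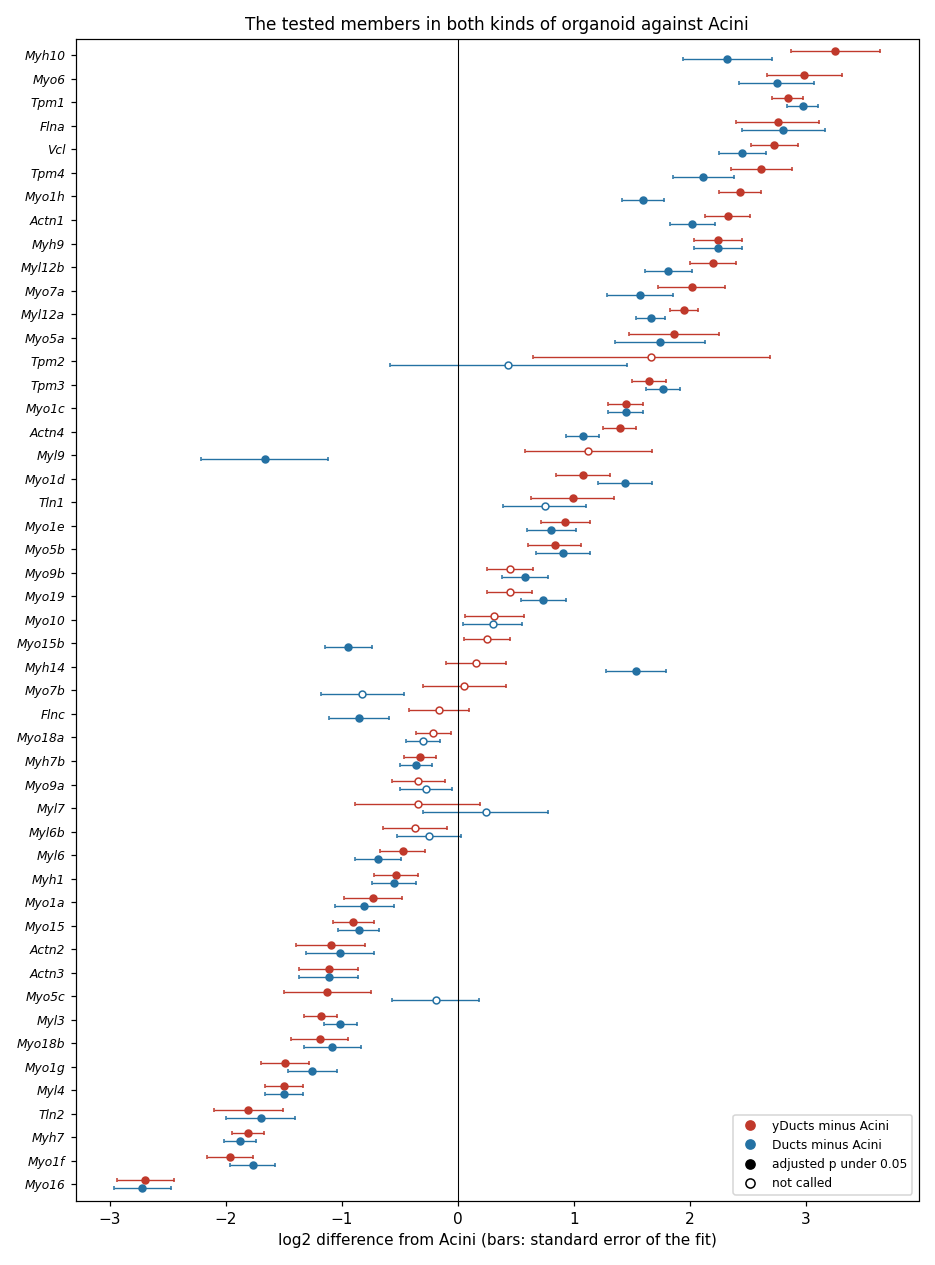
Log2 difference from Acini of the 49 tested members in yDucts (red) and in Ducts (blue), with the standard error of the fit as bars. Filled points had an adjusted p under 0.05. Myh10, Myo6, Tpm1, Flna and Vcl stand at the top with large positive differences in both organoid groups, and Myo16, Myo1f, Myh7 and Tln2 stand at the bottom.

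Of the 3 non-muscle myosin II heavy chains, Myh10 and Myh9 were called higher in both organoid groups, where 43.6% of all genes were called higher in yDucts and 42.7% in Ducts. Myh10, which encodes heavy chain IIB, read 8.77, 8.93, 8.78 and 8.53 in yDucts A to D, 9.01, 7.70, 7.15 and 7.42 in Ducts and 6.24, 5.44, 5.69 and 4.61 in Acini, on the log2 intensity scale used throughout. Every organoid array lay above every Acini array, and among the Ducts arrays A stood highest. The difference from Acini was 3.26 ± 0.39 in yDucts (standard error of the fit, as in all differences below; 9.56-fold, adjusted p = 7.0e-06) and 2.33 ± 0.39 in Ducts (5.01-fold, adjusted p = 0.00013). The mean of both Myh10 probe sets gave 1.49 in yDucts and 0.95 in Ducts, both called, the second probe set being above background on 2 of 12 arrays.

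Myh9, which encodes heavy chain IIA, the form that most cells use at the cortex and in stress fibres, read 11.80, 11.79, 11.57 and 11.56 in yDucts, 11.80, 11.99, 11.40 and 11.53 in Ducts and 9.89, 9.29, 9.64 and 8.91 in Acini. Both organoid groups averaged 11.68, and no organoid array reached down to the Acini range. The difference was 2.25 ± 0.21 in each (4.75-fold, adjusted p = 8.1e-07 in yDucts and 8.3e-07 in Ducts). Of the 4 other Myh9 probe sets, 3 were also higher in yDucts, by 1.24 to 1.97, and the dimmest was lower by a log2 difference of -1.05.

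Myh14, heavy chain IIC, which is found mainly in epithelia, read 7.41, 6.73, 7.45 and 7.67 in yDucts, 8.43, 9.38, 8.68 and 8.29 in Ducts and 6.83, 7.44, 7.10 and 7.25 in Acini. The yDucts and Acini arrays overlapped, and all 4 Ducts arrays lay above both. yDucts differed from Acini by 0.16 ± 0.26 (adjusted p = 0.58), a value that became -0.73 (adjusted p = 0.026) after quantile normalization and -0.88 (adjusted p = 0.012) after cyclic loess. Ducts differed by 1.54 ± 0.26 (2.91-fold, adjusted p = 0.00014), and by 0.63 (adjusted p = 0.051) and 0.50 (adjusted p = 0.13) under those scalings.

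Among the regulatory light chains that switch this motor on, Myl12a read 11.85, 11.91, 11.83 and 11.85 in yDucts, 11.60, 11.74, 11.41 and 11.54 in Ducts and 9.88, 9.93, 10.03 and 9.80 in Acini. The 3 groups were clear of each other, with yDucts highest. It was 1.95 ± 0.12 higher in yDucts (3.86-fold, adjusted p = 2.8e-08) and 1.66 ± 0.12 higher in Ducts (3.17-fold, adjusted p = 1.1e-07) than in Acini. A dimmer Myl12a probe set, above background on all 12 arrays, averaged 6.52 in yDucts, 6.02 in Ducts and 6.10 in Acini. Its differences from Acini were 0.42 in yDucts and -0.08 in Ducts, so the rise in Ducts rests on 1 probe set.

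Its neighbour in sequence and function, Myl12b, read 12.19, 12.40, 12.23 and 12.27 in yDucts, 12.26, 12.26, 11.51 and 11.52 in Ducts and 9.85, 10.18, 10.32 and 9.93 in Acini. Ducts C and D lay under Ducts A and B and still above all Acini arrays. The differences were 2.20 ± 0.20 (4.60-fold, adjusted p = 6.7e-07) in yDucts and 1.82 ± 0.20 (3.52-fold, adjusted p = 3.7e-06) in Ducts. Because these 2 transcripts are close copies, part of each signal may come from the other, and this was not tested.

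Myl6, the essential light chain of smooth muscle and non-muscle myosin, was called lower in both organoid groups, by an amount that moved with the scaling. It read 7.17, 7.11, 7.15 and 7.29 in yDucts, 6.91, 7.01, 7.05 and 6.90 in Ducts and 7.91, 6.98, 8.0 and 7.73 in Acini, where array B fell among the organoids. The difference of -0.47 ± 0.20 in yDucts (adjusted p = 0.041) was not called without yDucts A, B, C or D in turn, nor without Acini A, C or D, with adjusted p of 0.055 to 0.11. Setting array medians equal took the call away too (-0.26, adjusted p = 0.26). In Ducts the difference was -0.69 ± 0.20 (adjusted p = 0.0063). Quantile normalization and cyclic loess made both larger, at -1.35 and -1.45 in yDucts (adjusted p = 6.6e-05 and 3.5e-05) and -1.53 and -1.67 in Ducts (adjusted p = 2.4e-05 and 1.1e-05).

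**Figure D2:**
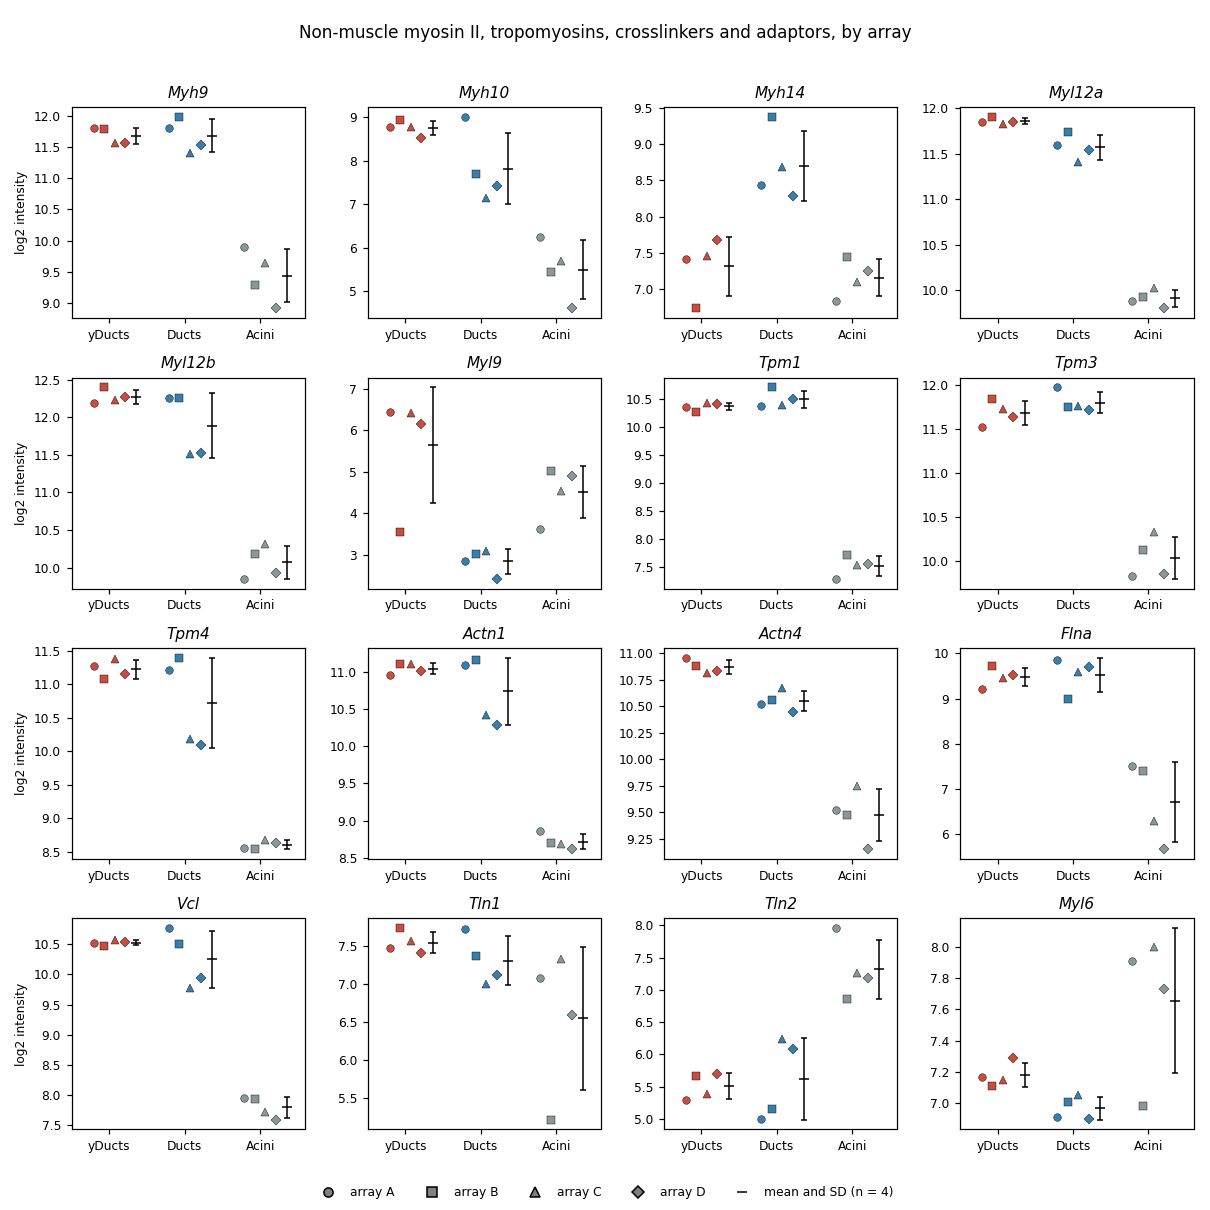
Log2 intensity of 16 non-muscle members on each array, with yDucts left, Ducts in the middle and Acini right, and each panel on its own scale. The black mark and bar give the mean and SD of 4 arrays. Tpm1, Tpm4, Vcl, Myl12a and Actn1 show organoid arrays far above Acini, Tln2 and Myl6 lie lower in organoids, and in Myl12b, Tpm4, Actn1 and Vcl the Ducts arrays C and D sit under A and B.

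Of the 4 tropomyosin genes, 3 were called higher in both organoid groups, where 43.6% of all genes were called higher in yDucts and 42.7% in Ducts. Tpm1 read 10.36, 10.27, 10.42 and 10.41 in yDucts, 10.37, 10.71, 10.40 and 10.50 in Ducts and 7.29, 7.71, 7.53 and 7.55 in Acini. The arrays of each group lay close together, and all organoid arrays were far above Acini. The difference was 2.85 ± 0.14 (7.19-fold, adjusted p = 2.6e-09) in yDucts and 2.98 ± 0.14 (7.86-fold, adjusted p = 1.6e-09) in Ducts, the smallest adjusted p among the members in both comparisons.

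Tpm4, the gene for a tropomyosin of non-muscle cells, read 11.27, 11.07, 11.38 and 11.15 in yDucts, 11.21, 11.39, 10.18 and 10.09 in Ducts and 8.55, 8.54, 8.68 and 8.63 in Acini. Ducts again fell into A and B above C and D, all above Acini. It was 2.62 ± 0.26 higher in yDucts (6.14-fold, adjusted p = 1.5e-06) and 2.12 ± 0.26 higher in Ducts (4.34-fold, adjusted p = 1.0e-05). Tpm3 was 1.65 ± 0.15 higher in yDucts (3.13-fold) and 1.77 ± 0.15 higher in Ducts (3.40-fold), with no overlap with Acini in either.

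Tpm2 varied widely within groups and was not called in any comparison. It read 8.76, 6.91, 8.72 and 8.54 in yDucts, 8.63, 10.12, 4.69 and 4.56 in Ducts and 7.03, 6.27, 6.41 and 6.54 in Acini. Ducts A and B lay above every Acini array, and Ducts C and D below every one. The difference of Ducts from Acini was 0.44 ± 1.02 (adjusted p = 0.71), and it was 2.81 (adjusted p = 0.00061) without Ducts C and D and -1.94 (adjusted p = 0.0021) without Ducts A and B. A dimmer Tpm2 probe set, which averaged 7.21 in yDucts, 5.91 in Ducts and 4.51 in Acini, gave 2.70 in yDucts minus Acini (adjusted p = 0.032), and the probe set used gave 1.67, with an adjusted p of 0.15 in the fit of all groups and 0.0023 with only yDucts and Acini fitted.

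Of the crosslinkers, Flna, Actn1 and Actn4 were called higher in both organoid groups, where 43.6% of all genes were called higher in yDucts and 42.7% in Ducts. Flna, which holds actin filaments in orthogonal networks, read 9.22, 9.71, 9.45 and 9.53 in yDucts, 9.84, 8.98, 9.58 and 9.70 in Ducts and 7.52, 7.39, 6.29 and 5.67 in Acini. The Acini arrays were spread widely, and the lowest organoid array was still above them all. The differences were 2.76 ± 0.36 (6.77-fold, adjusted p = 1.5e-05) in yDucts and 2.81 ± 0.36 (7.0-fold, adjusted p = 1.3e-05) in Ducts.

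Actn1, an alpha-actinin of stress fibres and focal adhesions, read 10.96, 11.10, 11.10 and 11.01 in yDucts, 11.09, 11.16, 10.42 and 10.28 in Ducts and 8.86, 8.70, 8.68 and 8.62 in Acini. All organoid arrays lay above Acini, with Ducts C and D under A and B. It was higher by 2.33 ± 0.19 (5.02-fold, adjusted p = 3.2e-07) in yDucts and 2.02 ± 0.19 (4.06-fold, adjusted p = 1.1e-06) in Ducts. Actn4, its close relative, was higher by 1.40 ± 0.14 (2.63-fold) and 1.08 ± 0.14 (2.11-fold), and cyclic loess took these values to 0.32 (adjusted p = 0.052) and -0.0043 (adjusted p = 0.98), so its call depends on the scaling.

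Vcl encodes vinculin, which reinforces talin at focal adhesions and alpha-catenin at cell junctions under tension. It read 10.52, 10.47, 10.58 and 10.54 in yDucts, 10.77, 10.51, 9.78 and 9.94 in Ducts and 7.95, 7.93, 7.72 and 7.59 in Acini. The yDucts arrays lay close together, and Ducts C and D under Ducts A and B. It was 2.73 ± 0.20 higher in yDucts (6.63-fold, adjusted p = 1.2e-07) and 2.45 ± 0.20 higher in Ducts (5.47-fold, adjusted p = 3.0e-07).

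The 2 talins, which connect integrins to actin, ran in opposite directions in yDucts. Tln2 read 5.30, 5.66, 5.38 and 5.70 in yDucts, 5.0, 5.15, 6.24 and 6.08 in Ducts and 7.96, 6.86, 7.26 and 7.19 in Acini. No organoid array reached the Acini range, and the differences were -1.81 ± 0.30 (3.50-fold lower, adjusted p = 0.00012) in yDucts and -1.70 ± 0.30 (3.25-fold lower, adjusted p = 0.00020) in Ducts. Both other Tln2 probe sets were lower too, by -0.71 and -1.37 in yDucts.

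Tln1 read 7.47, 7.73, 7.56 and 7.40 in yDucts, 7.72, 7.37, 7.0 and 7.11 in Ducts and 7.07, 5.22, 7.32 and 6.59 in Acini, where array B was far below the rest. It was 0.99 ± 0.36 higher in yDucts (1.99-fold, adjusted p = 0.024) and the Ducts value was 0.75 ± 0.36 (adjusted p = 0.074). Its 2 dimmer probe sets were lower in yDucts, by -0.92 and -0.60, and quantile normalization and cyclic loess left 0.21 and 0.04 of the difference, so the rise of Tln1 rests on 1 probe set and on the scaling.

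The stretches of genome around the start sites of 4 of these genes are given because Vcl, Tpm1 and Myh10 were among the members with the largest differences from Acini and Myl9, described further on, separated yDucts from Ducts. Each runs from 250 bases before to 50 bases after the start in RefSeq, build GRCm38.p6, and is written 5′ to 3′ on the strand of the gene. Capitals mark the letters GGAATG, the core that TEAD factors bind, on either strand (CATTCC on the other), and the CArG box. The Vcl window is chr14:20929148-20929447 on the plus strand, the Tpm1 window chr9:67049164-67049463 on the minus strand, the Myh10 window chr11:68691665-68691964 on the plus strand and the Myl9 window chr2:156775214-156775513 on the plus strand.
Vcl: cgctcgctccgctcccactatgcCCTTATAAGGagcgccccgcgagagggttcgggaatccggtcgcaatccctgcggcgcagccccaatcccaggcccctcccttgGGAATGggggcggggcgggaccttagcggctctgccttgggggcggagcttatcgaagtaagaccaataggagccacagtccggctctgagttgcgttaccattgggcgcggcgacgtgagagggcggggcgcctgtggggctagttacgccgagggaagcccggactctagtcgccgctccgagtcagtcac
Tpm1: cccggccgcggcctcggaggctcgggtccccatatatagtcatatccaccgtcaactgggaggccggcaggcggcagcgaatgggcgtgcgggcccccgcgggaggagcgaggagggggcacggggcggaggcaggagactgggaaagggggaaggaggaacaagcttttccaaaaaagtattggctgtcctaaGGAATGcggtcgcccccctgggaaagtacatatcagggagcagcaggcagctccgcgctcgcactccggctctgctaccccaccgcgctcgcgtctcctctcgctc
Myh10: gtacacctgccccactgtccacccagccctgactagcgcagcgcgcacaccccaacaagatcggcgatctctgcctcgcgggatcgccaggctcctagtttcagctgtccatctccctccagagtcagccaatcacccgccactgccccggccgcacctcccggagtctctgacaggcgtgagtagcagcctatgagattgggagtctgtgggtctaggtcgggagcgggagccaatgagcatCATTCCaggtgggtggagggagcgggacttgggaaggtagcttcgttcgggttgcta
Myl9: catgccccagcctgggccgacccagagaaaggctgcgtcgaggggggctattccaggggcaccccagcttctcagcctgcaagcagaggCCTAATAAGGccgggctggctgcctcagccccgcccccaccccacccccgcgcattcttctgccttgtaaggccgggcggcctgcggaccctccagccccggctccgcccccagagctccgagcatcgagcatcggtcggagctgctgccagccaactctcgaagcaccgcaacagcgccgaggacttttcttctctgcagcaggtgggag

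Counted from 1 at the 5′ end, the Vcl window held a CArG box at position 24 and GGAATG at 108, the Tpm1 window GGAATG at 195 and the Myh10 window its reverse complement at 244, while the Myl9 window held a CArG box at 90. RefSeq promoters were matched for 53 of the 60 members, 66 windows in all. GGAATG stood in 19 of these 66 windows (28.8%) and in 14.7% of the 32851 windows of the same length in the table, and the CArG box in 7 (10.6%) and in 1.63%. GGAATG was found in 8 of the 22 windows of members called higher in both organoid groups. It was in 3 of the 14 windows of members called lower in both and in 8 of the 30 windows of all other members. The CArG box was found in 2, 2 and 3 of these windows, and its carriers included the muscle genes Myh4, Myl3 and Myl7. Some members have several windows, and 2 overlapping Flnc windows hold the same GGAATG match. Counted by member with a window, GGAATG was found in 8 of 17 called higher in both, 3 of 12 called lower in both and 7 of 24 others. A match of letters is not a bound site, and no difference between these shares was tested.

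Unconventional myosins, single motors that carry vesicles or tether membranes, made up 24 of the 60 members, of which 22 were tested. In yDucts 8 were higher and 7 lower than in Acini, and in Ducts 10 and 7, where 76.2% and 75.8% of all genes were called. Myo6, the motor that walks toward the minus end of actin and serves endocytosis, read 9.0, 8.77, 8.70 and 8.74 in yDucts, 8.86, 9.44, 7.96 and 7.99 in Ducts and 5.58, 5.95, 6.46 and 5.26 in Acini. All organoid arrays were above Acini, and the differences were 2.99 ± 0.33 (7.94-fold, adjusted p = 3.2e-06) in yDucts and 2.75 ± 0.33 (6.73-fold, adjusted p = 7.1e-06) in Ducts.

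Myo1h, a class I myosin, was called higher in both organoid groups than in Acini, and its difference between yDucts and Ducts is given further on. It read 6.91, 7.12, 6.63 and 7.03 in yDucts, 5.66, 6.15, 6.24 and 6.29 in Ducts and 4.45, 4.30, 4.35 and 4.85 in Acini. The 3 groups did not overlap. It was 2.44 ± 0.18 higher in yDucts (5.41-fold, adjusted p = 1.5e-07) and 1.60 ± 0.18 higher in Ducts (3.03-fold, adjusted p = 5.7e-06) than in Acini.

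Myo7a, a motor best known from the stereocilia of hair cells, read 7.49, 6.65, 7.43 and 7.28 in yDucts, 7.47, 6.99, 6.35 and 6.25 in Ducts and 4.95, 5.33, 5.62 and 4.88 in Acini. The organoid arrays did not overlap Acini. It was higher by 2.02 ± 0.29 (4.05-fold, adjusted p = 3.3e-05) in yDucts and 1.57 ± 0.29 (2.97-fold, adjusted p = 0.00027) in Ducts. Myo1c, which links membranes to cortical actin, was 1.45 ± 0.15 higher in each (2.73-fold), and its 3 other probe sets were higher in yDucts by 1.46 to 2.65. Quantile normalization and cyclic loess reduced it to 0.62 and 0.35 in yDucts (adjusted p = 0.0041 and 0.043) and to 0.63 and 0.34 in Ducts (adjusted p = 0.0036 and 0.045).

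Myo5a, a class V myosin that moves vesicles and organelles, read 6.29, 6.54, 6.15 and 6.29 in yDucts, 5.55, 5.12, 6.93 and 7.19 in Ducts and 4.76, 4.04, 4.30 and 4.71 in Acini. In Ducts the arrays C and D were the high ones here. The differences from Acini were 1.86 ± 0.39 (3.64-fold, adjusted p = 0.00076) in yDucts and 1.75 ± 0.39 (3.35-fold, adjusted p = 0.0012) in Ducts.

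Myo5b, which serves recycling endosomes at the apical side of epithelial cells, was higher by 0.83 ± 0.23 in yDucts (adjusted p = 0.0052) and 0.91 ± 0.23 in Ducts (adjusted p = 0.0031), and both values lost their call after quantile normalization and after cyclic loess, where they were -0.04 and -0.12 in yDucts and 0.06 and -0.05 in Ducts. Myo5c, a motor of exocrine secretory granules, read 6.52, 7.19, 6.78 and 6.72 in yDucts, 6.56, 7.28, 8.53 and 8.59 in Ducts and 8.19, 7.82, 7.89 and 7.82 in Acini. It was lower in yDucts by -1.13 ± 0.37 (2.18-fold, adjusted p = 0.015). This difference was -1.98 after quantile normalization, -2.14 after cyclic loess and -0.91 with array medians set equal, called in each. Ducts A and B lay near yDucts and Ducts C and D lay above Acini, and the Ducts value was -0.19 ± 0.37 (adjusted p = 0.66), -1.01 without C and D (adjusted p = 0.0035) and 0.63 without A and B (adjusted p = 0.016).

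Myo1d and Myo1e, class I motors of epithelial cells, were higher by 1.08 ± 0.23 and 0.93 ± 0.21 in yDucts and by 1.44 ± 0.23 and 0.81 ± 0.21 in Ducts. Cyclic loess brought these to -0.03 and 0.06 in yDucts and to 0.33 and -0.06 in Ducts, none of them called. Myo10, the motor of filopodia, was 0.32 ± 0.25 from Acini in yDucts (adjusted p = 0.27) and 0.30 ± 0.25 in Ducts (adjusted p = 0.29), with values of -0.59 and -0.74 in yDucts and -0.60 and -0.76 in Ducts under quantile normalization and cyclic loess.

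**Figure D3:**
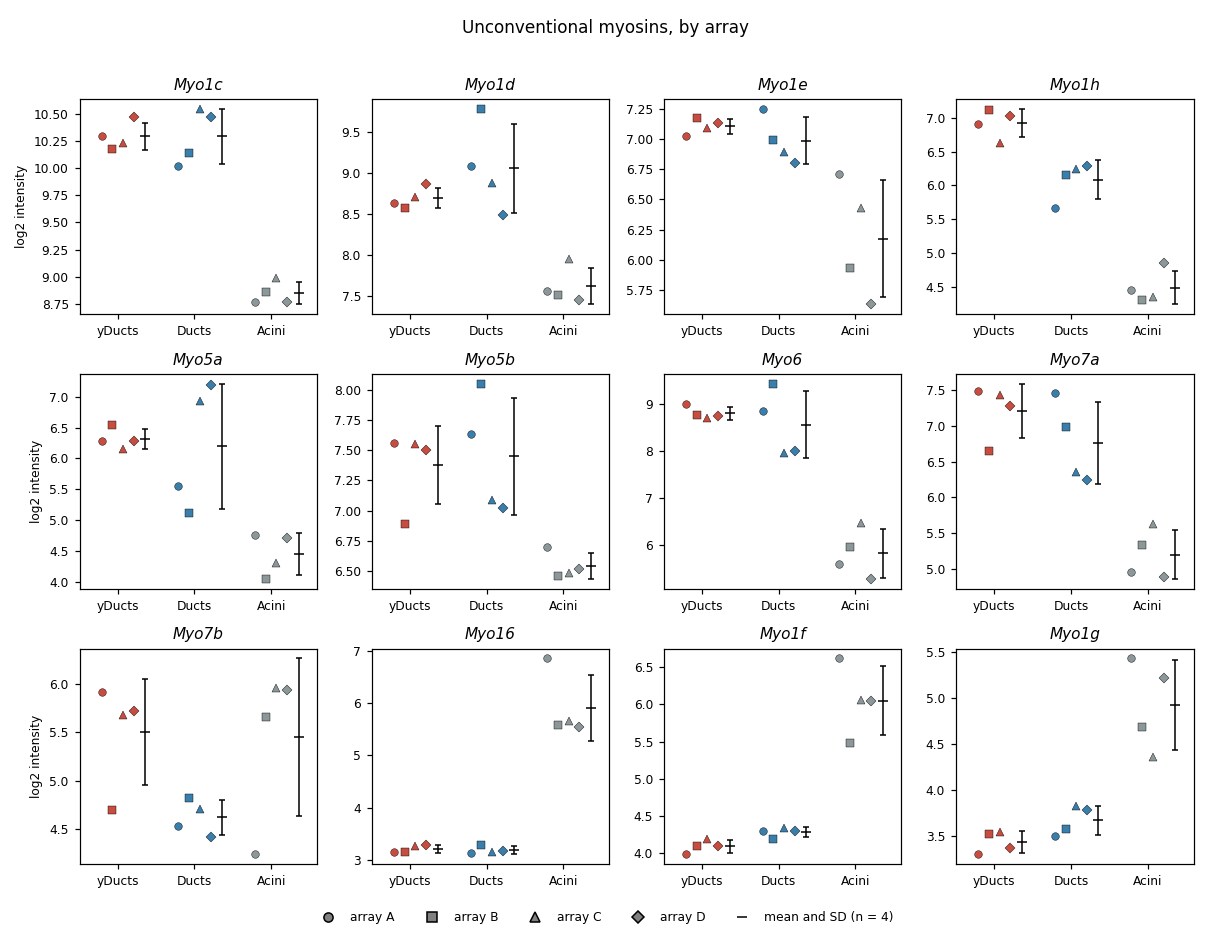
Log2 intensity of 12 unconventional myosins on each array, with yDucts left, Ducts in the middle and Acini right, and each panel on its own scale. Marks with bars are the mean and SD of 4 arrays. Myo6, Myo1h, Myo7a and Myo1c lie higher in both organoid groups, and Myo16, Myo1f and Myo1g lie higher in Acini, where Myo16 is highest on array A.

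The unconventional myosins that were lower in organoids included motors known from other cells. Myo16, described mainly in neurons, read 3.15, 3.15, 3.27 and 3.29 in yDucts, 3.14, 3.30, 3.15 and 3.17 in Ducts and 6.85, 5.59, 5.65 and 5.55 in Acini. The organoid values lay close to the background of their arrays. It was 6.48-fold lower in yDucts (adjusted p = 6.6e-07) and at least 6.40-fold lower in Ducts (adjusted p = 6.1e-07), where "at least" means that the mean of the dimmer group was under the 30th percentile and that values under it were replaced by that percentile.

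Myo1f and Myo1g are class I myosins of white blood cells. Myo1f read 3.98, 4.09, 4.19 and 4.09 in yDucts, 4.30, 4.18, 4.34 and 4.30 in Ducts and 6.62, 5.48, 6.06 and 6.04 in Acini, a difference of -1.96 ± 0.20 (3.90-fold lower, adjusted p = 1.6e-06) in yDucts and -1.77 ± 0.20 (3.41-fold lower, adjusted p = 4.0e-06) in Ducts. Myo1g was lower by -1.49 ± 0.21 and -1.25 ± 0.21. Myo18b, known from striated muscle, was lower by -1.19 ± 0.25 and -1.08 ± 0.25, and Myo1a, a brush border motor, by -0.73 ± 0.25 in yDucts and at least 1.67-fold in Ducts (adjusted p = 0.011), the Myo1a calls being lost after quantile normalization and after cyclic loess. Of the 8 immune markers measured, Ptprc, Lyz2, Csf1r and Laptm5 were lower in both organoid groups, while Cd14 and Cd68 were higher. Ptprc, the pan-leukocyte gene, averaged under background in both organoid groups and was at least 3.97-fold lower in yDucts. It was above background on Acini arrays only and so entered the test through the group where it was high. Its lower calls were largely set by that filter and are not counted as support. Lyz2, Csf1r and Laptm5 were lower in yDucts by -3.49, -2.20 and -1.54. Cd14 was higher there by 5.63, and Cd68, under background in Acini, at least 2.06-fold higher. The summed immune signal was 12.2 to 12.7 in yDucts, 8.79 to 12.6 in Ducts and 9.35 to 10.1 in Acini. Cd14 alone, at 12.18 to 12.67 in yDucts, 8.07 to 12.50 in Ducts and 6.47 to 7.45 in Acini, carried the organoid sums, and the other 7 markers summed to 7.23 to 7.63 in yDucts, 7.44 to 8.39 in Ducts and 9.06 to 9.88 in Acini. Their part in the 2 myosins was not tested.

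Of 9 muscle heavy chains only Myh1, Myh7 and Myh7b were tested, and all 3 were called lower in both organoid groups. Over all genes, 32.6% were called lower in yDucts and 33.1% in Ducts. Myh7b averaged 3.23 in yDucts, 3.19 in Ducts and 3.55 in Acini, under background in Ducts and in Acini, and no fold is given for it. Myh1 was lower by -0.53 ± 0.19 in yDucts (adjusted p = 0.021) and -0.55 ± 0.19 in Ducts (adjusted p = 0.018), and in each comparison the call was lost under all 3 scalings (-0.14, 0.03 and -0.32 in yDucts, -0.17, -0.0076 and -0.34 in Ducts after quantile normalization, cyclic loess and median centring). It was also lost in yDucts without yDucts B or Acini B, and in Ducts without Ducts A or without Ducts A and B. Myh7, the slow and cardiac heavy chain, read 2.87, 2.86, 2.93 and 3.03 in yDucts, 2.74, 2.81, 3.03 and 2.84 in Ducts and 4.61, 4.69, 5.04 and 4.60 in Acini. All organoid values were under their background and the gene was at least 2.91-fold lower in yDucts and at least 2.88-fold lower in Ducts. It was above background on 4 arrays, all of them Acini, so it entered the test only through the group where it was high. Its lower calls were largely set by that filter and are not counted as support. Myh11, the smooth muscle heavy chain, averaged 2.73 in yDucts, 2.94 in Ducts and 4.18 in Acini and was not above background on enough arrays to be tested.

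Of the 6 muscle light chains 3 were tested. The atrial Myl4 and the ventricular Myl3 were lower by -1.50 ± 0.17 and -1.18 ± 0.14 in yDucts and by -1.50 ± 0.17 and -1.01 ± 0.14 in Ducts. Myl7, the atrial regulatory chain, was not called in either, with -0.34 and 0.24. The sarcomeric Actn2 and Actn3 were lower by -1.10 ± 0.30 and -1.11 ± 0.25 in yDucts and by -1.01 ± 0.30 and -1.11 ± 0.25 in Ducts, and quantile normalization or cyclic loess took their adjusted p above 0.05 in all but Actn3 in Ducts after quantile normalization. Flnc, the filamin of muscle, was called lower in Ducts, by -0.85 ± 0.26 (adjusted p = 0.0092), with -0.16 ± 0.26 in yDucts (adjusted p = 0.58), where quantile normalization and cyclic loess gave -1.02 and -1.01 (adjusted p = 0.0043 and 0.0056).

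The other 10 members that were not tested, Myh2, Myh3, Myh4, Myh6, Myh8, Myl1, Myl2, Myl10 and both class III myosins, averaged between 2.22 and 3.76 in every group. Of 8 smooth muscle and pericyte markers tested, 7 were lower in yDucts and 6 in Ducts, where 32.6% and 33.1% of all genes were called lower. Among them were Acta2, by -1.57, and Rgs5, under background in organoids, at least 16.3-fold in yDucts. Rgs5 was above background on Acini arrays only, so its lower calls were largely set by the filter and are not counted as support. The summed signal of all 10 smooth muscle and pericyte markers was 7.74 to 7.84 in yDucts, 7.87 to 8.37 in Ducts and 9.14 to 9.22 in Acini. Of the 6 skeletal muscle markers tested, 4 were lower in each and 1 was higher in Ducts, with sums of 6.71 to 6.84 in yDucts, 7.04 to 7.86 in Ducts and 7.27 to 7.62 in Acini. Tnni2, at 4.01 to 5.0 in yDucts, 5.35 to 7.15 in Ducts and 3.67 to 4.56 in Acini, set much of the Ducts sum, and without it the sums were 6.33 to 6.46 in yDucts, 6.28 to 6.51 in Ducts and 7.14 to 7.51 in Acini. Their part in the lower muscle members was not tested.

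Signal level and direction went together across the probe sets of the members. Of the 63 member probe sets whose mean over the 3 groups was under 5, 52 were lower in yDucts than in Acini and 11 higher, and of the 54 at or above 5, 7 were lower and 47 higher. The same split was not counted over all 45101 probe sets, so it is not read as a trait of the members. Acini arrays read higher at the bottom of the scale, as the 30th percentiles given above show. With only the genes above the 50th percentile of their array on 4 or more arrays, 38 members were tested. Of these, 6 were called lower in yDucts and 8 in Ducts, where 24.1% and 24.8% of all genes were called lower. Under the main filter those shares of all genes were 32.6% and 33.1%. Among the 47 unused probe sets that were above background on at least 4 arrays, 33 had the sign of the probe set used for their gene and 14 the opposite one. One more probe set each of Tpm3, Tpm1 and Myo6 gave larger differences in yDucts than the one used, at 4.01, 3.53 and 4.32. Other probe sets gave less, and the mean over all probe sets of a gene was 1.24 for Tpm3, 1.45 for Tpm1 and 2.55 for Myo6, where the probe set used gave 1.65, 2.85 and 2.99.

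**Figure D4:**
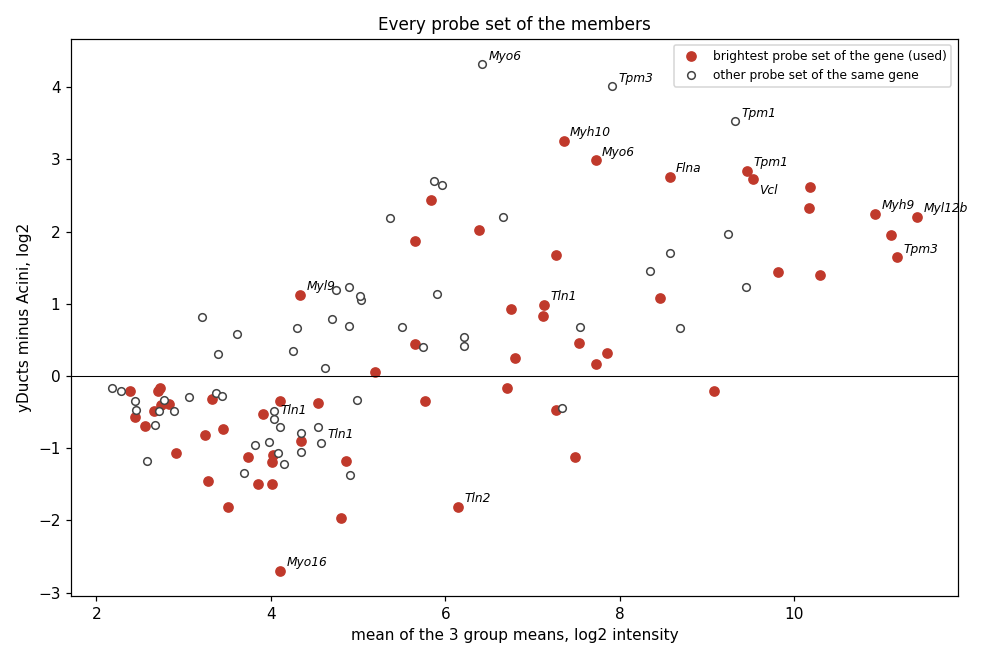
Log2 difference of yDucts from Acini against the mean level, on the log2 intensity scale, for all 117 probe sets of the members. Red points are the brightest probe set of each gene and open points the others. Of the 63 probe sets under a mean level of 5, 52 lie below zero, and of the 54 at or above it 47 lie above zero. The same split over all probe sets of the array was not counted.

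Between yDucts and Ducts few members differed. These groups differed in starting cells and in past induction of YAP together, and these cannot be told apart. Of the 49 tested, 3 were called higher in yDucts, 1 lower and 45 were not called, and 3.14% of all genes were called, 2.15% higher and 0.987% lower. The median difference was 0.0175 over the members and -0.0025 over all genes. Groups did not overlap for 8 members, Actn4, Myh14, Myl12a, Myl3, Myl6, Myl9, Myo15b and Myo1h, where 12.3% of all genes had groups that did not overlap. At 2-fold or more, 2 members were higher and 1 lower, against 2.39% of all genes, 1.66% higher and 0.734% lower.

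Myl9, the regulatory light chain of smooth muscle that is also made by motile and contractile non-muscle cells, showed the largest difference between yDucts and Ducts of the tested members. It read 6.44, 3.55, 6.42 and 6.16 in yDucts, 2.86, 3.03, 3.09 and 2.42 in Ducts and 3.62, 5.01, 4.54 and 4.89 in Acini. The yDucts arrays A, C and D lay above all others and B close to Ducts, whose 4 values were all under background. The difference from Ducts was 2.79 ± 0.55 (at least 5.40-fold, adjusted p = 0.014), and the call was lost without yDucts A (2.53, adjusted p = 0.060), without yDucts C (2.53, adjusted p = 0.056) and with Ducts C and D left out (2.70, adjusted p = 0.090). Set against Acini, yDucts stood at 1.13 ± 0.55 (adjusted p = 0.077), which became 1.83 (adjusted p = 0.00019) without array B, 1.58 (adjusted p = 0.023) after cyclic loess and 1.35 (adjusted p = 0.039) with arrays centred on their median. Ducts stood at -1.67 ± 0.55 (at least 2.47-fold lower, adjusted p = 0.014), and this call was lost after cyclic loess (-1.23, adjusted p = 0.066) and with Ducts C and D left out (-1.57, adjusted p = 0.064).

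Markers of smooth muscle were read beside it. Of the 8 smooth muscle and pericyte markers tested, 0 were called between yDucts and Ducts, with a median of -0.075. Acta2, the smooth muscle actin, read 4.25, 4.45, 4.41 and 4.55 in yDucts and 4.24, 4.44, 4.36 and 4.29 in Ducts, a difference of 0.08 (adjusted p = 0.94). Cnn1, another marker of contractile smooth muscle, was at 3.14, 3.04, 3.95 and 3.30 in yDucts and 2.96, 2.86, 2.79 and 2.87 in Ducts and was not tested. Tagln averaged 3.90 in yDucts and 4.17 in Ducts, Notch3 5.35 and 6.15 and Myh11 2.73 and 2.94. Their part in the difference of Myl9 was not tested.

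Myh14, read out above, was the member called lower in yDucts than in Ducts, by -1.38 ± 0.26 (2.6-fold, adjusted p = 0.010). Myo15b read 7.40, 6.86, 7.18 and 7.71 in yDucts, 5.76, 6.12, 6.47 and 6.01 in Ducts and 7.15, 6.80, 7.11 and 7.07 in Acini. Its yDucts arrays overlapped Acini and lay clear of Ducts, with a difference from Ducts of 1.20 ± 0.20 (2.29-fold, adjusted p = 0.0051), and its dimmer probe set gave 1.18. Myo1h differed by 0.84 ± 0.18 (1.79-fold, adjusted p = 0.027), with adjusted p of 0.051 to 0.094 after quantile normalization, without yDucts A, B or D, without Ducts C, or without Ducts A and B.

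Among members that were not called, the values were Tpm2 at 1.23 ± 1.02, Myo5c at -0.94 ± 0.37, Myh10 at 0.93 ± 0.39, Myo7b at 0.88 ± 0.36, Flnc at 0.69 ± 0.26, Myl7 at -0.58 ± 0.54 and Tpm4 at 0.50 ± 0.26, with adjusted p of 0.22 to 0.78. Some of these turned on the Ducts arrays. Without Ducts A and B, Tpm2 was 3.61 (adjusted p = 0.00023), Myo5c -1.76 (adjusted p = 0.00016) and Myh10 1.47 (adjusted p = 0.014), and without Ducts A alone Myo5c was -1.33 (adjusted p = 0.022) and Myh10 1.33 (adjusted p = 0.030). Without Ducts C and D they were -1.14, -0.12 and 0.40, none called. Myo7b, a motor of the brush border, read 5.91, 4.70, 5.68 and 5.72 in yDucts and 4.53, 4.82, 4.71 and 4.42 in Ducts. Only yDucts B fell in the range of Ducts. The heavy chain Myh9 differed by 0 ± 0.21 and Vcl by 0.28 ± 0.20.

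**Figure D5:**
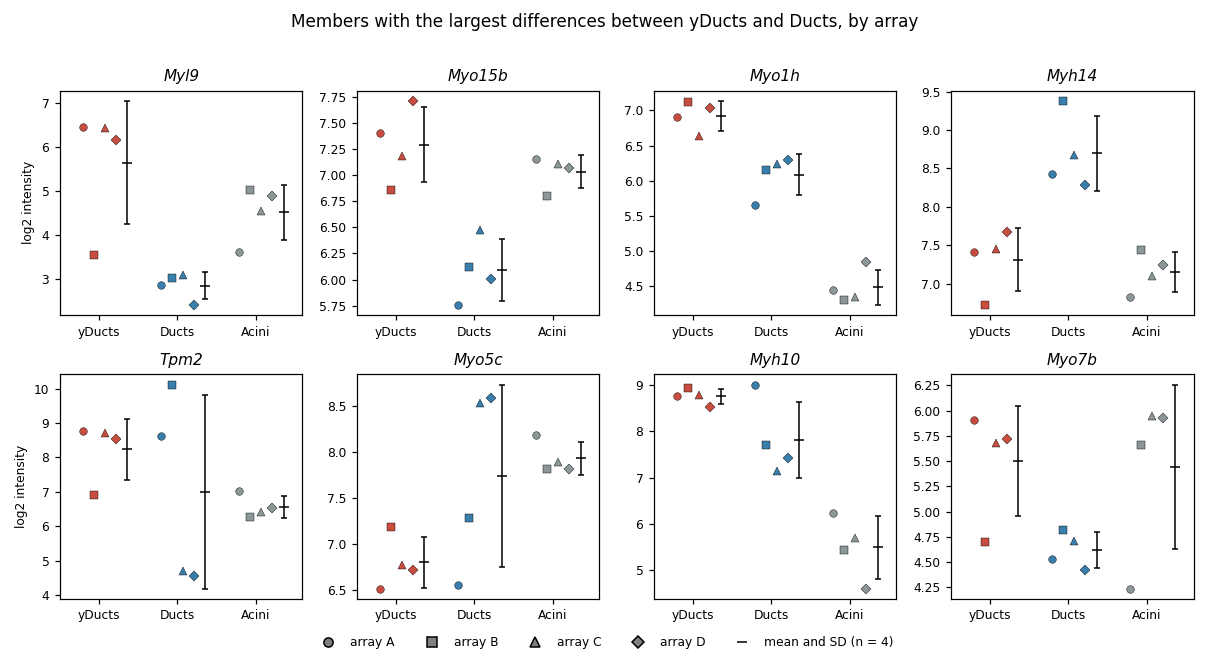
Log2 intensity of 8 members on each array, with yDucts left, Ducts in the middle and Acini right, each panel on its own scale and with the mean and SD of 4 arrays. Myl9, Myo15b and Myo1h were called higher and Myh14 lower in yDucts than in Ducts. In Tpm2 and Myo5c the Ducts arrays A and B stand apart from C and D.

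The Ducts arrays fell into 2 pairs. The deviations of all tested genes from the Ducts mean correlated at 0.22 between A and B and 0.76 between C and D, and at -0.63 to -0.83 across the pairs. Deviations from a shared mean cancel out within each gene, so the negative values are partly forced. Both of A and B lay at least 1 log2 unit above both of C and D in Tpm2 and Tpm4 and at least 1 below in Myo5a and Myo5c, which is 4.08% of tested members in each direction, against 3.42% and 1.51% of all genes. The gap was not counted for other pairings of the Ducts arrays. The labels name no batch, so the pairs are described only as these arrays. Without Ducts A and B, 9 members were called higher and 3 lower in yDucts, where 14.6% of all genes were called, 8.65% higher and 5.94% lower. Without Ducts C and D the members were 2 and 1, and 2.15% of all genes were called.

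Genes that work with the members were read in the same fit. Of 129 such genes listed by role and tested, 82 were higher and 23 lower in yDucts, and 79 and 25 in Ducts, where 76.2% and 75.8% of all genes were called. After cyclic loess 51 were higher and 36 lower in yDucts, where 63.1% of all genes were called, 27.1% higher and 36% lower. The list of actin dynamics had 23 higher and 4 lower of 28 tested in yDucts, with a median of 1.68 against 0.24 over all genes, and in Ducts 22 and 4. Pfn2, a profilin that feeds monomers to growing filaments, was at least 26.7-fold higher in yDucts and at least 17.3-fold in Ducts, Tmod3, which caps pointed ends, was higher by 3.44 ± 0.20 and 3.39 ± 0.20, and Cap1 by 3.11 ± 0.36 and 3.36 ± 0.36.

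Other actin-binding proteins gave 21 higher and 3 lower of 29 in yDucts and 20 and 4 in Ducts. That is 82.8% called in each, near the 76.2% and 75.8% of all genes, but the calls leaned to higher. Over all genes, 43.6% were called higher and 32.6% lower in yDucts, and 42.7% and 33.1% in Ducts. The medians were 1.72 in yDucts and 1.61 in Ducts, against 0.24 and 0.21 over all genes. Ezr, which links the apical membrane to actin, read 11.07, 10.89, 11.04 and 11.22 in yDucts, 10.69, 11.05, 11.44 and 11.12 in Ducts and 6.17, 6.41, 7.26 and 6.53 in Acini, a difference of 4.46 ± 0.23 in yDucts (adjusted p = 4.2e-09). Vil1, the villin of microvilli, was at least 14.2-fold higher in yDucts and at least 20.0-fold in Ducts. Pdlim7, which sits on stress fibres, was higher by 3.81 ± 0.22 and 4.16 ± 0.22.

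Focal adhesion genes counted 14 higher and 2 lower of 22 in yDucts and 13 and 3 in Ducts. That is 72.7% called in each, no more than the share of all genes, but the calls leaned to higher. Over all genes, 43.6% were called higher and 32.6% lower in yDucts, and 42.7% and 33.1% in Ducts. The medians were 1.47 in yDucts and 1.55 in Ducts, against 0.24 and 0.21 over all genes. Sorbs2, an adaptor between actin and adhesion proteins, was higher by 3.43 ± 0.32 in yDucts and 3.73 ± 0.32 in Ducts. The actin polymerase Vasp was higher by 3.08 ± 0.17 and 3.23 ± 0.17, and the integrin subunit Itgav by 3.08 ± 0.26 and 2.56 ± 0.26.

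The lists closest to the motor itself were mixed. Genes that regulate the light chains had 7 higher and 6 lower of 19 in yDucts and 6 and 6 in Ducts, with medians of -0.23 and -0.11. Over all genes, 43.6% were called higher and 32.6% lower in yDucts, and 42.7% and 33.1% in Ducts. Ppp1r12a, the targeting subunit of myosin phosphatase, was higher by 2.70 ± 0.21 and 2.55 ± 0.21, while the kinase Dapk2 was at least 5.23-fold lower in yDucts and lower by -2.00 ± 0.34 in Ducts, and the phosphatase inhibitor Ppp1r14c was lower by -1.84 ± 0.23 and -1.80 ± 0.23. Of the actins, Actb was higher by 0.64 ± 0.13 and 0.43 ± 0.13, and the muscle actins Acta2 and Acta1 were lower by -1.57 ± 0.14 and -1.15 ± 0.20 in yDucts. Of 7 genes of the SRF and MRTF list, Mrtfa (1.54 ± 0.14) and Fhl2 (1.29 ± 0.27) were higher and 3 lower in yDucts, among them Myocd, a cofactor of SRF in muscle, which was under background in yDucts and at least 2.11-fold lower.

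Between yDucts and Ducts, 6 of these 129 genes were called, where 3.14% of all genes were. They fall outside the rule that named the others and are given because they were seen to pass. With single arrays left out, 1 to 6 were called higher and 3 to 4 lower. Without Ducts C and D the counts were 1 and 2, and without Ducts A and B 23 and 9, where 2.15% and 14.6% of all genes were called. Synpo, which stabilises actin bundles with alpha-actinin, was higher in yDucts by 2.12 ± 0.30 (adjusted p = 0.0018), Palld, an actin scaffold, by 0.96 ± 0.22 (adjusted p = 0.032), and the integrin subunit Itgb5 by 0.69 ± 0.15 (adjusted p = 0.022). Tns4, a tensin, was lower by -2.47 ± 0.46 (adjusted p = 0.010), the bundling protein Fscn1 by -1.69 ± 0.33 (adjusted p = 0.014) and Arhgap29 by -1.50 ± 0.22 (adjusted p = 0.0024).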

How the data were processed

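Total RNA was hybridised as biotin-labelled cRNA to Affymetrix mouse arrays, 12 in all. The deposited values are log2 intensities that the authors made with RMA, which corrects the background, equalises the distributions of the arrays and reduces each probe set to a single value, and the sources used here do not say whether all arrays went through it together. Acini arrays nevertheless read higher at the low end. Of the probe sets, 34958 had 1 gene symbol in the platform annotation, 932 had several and 9211 had none, and only the first kind was used. The brightest probe set stood for a gene, and genes above the 30th percentile of their array on at least 4 arrays were tested. A group-means model over all 12 arrays was fitted with limma 3.58.1 (R 4.3.3), with 3 contrasts and Benjamini-Hochberg adjustment over 14990 genes, each called at an adjusted p under 0.05.

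The members and the lists of other genes were chosen with earlier results of these data known. Named were the non-muscle actomyosin members, the muscle members, the unconventional myosins of epithelia, in each comparison with Acini the 8 called members furthest in each direction, every called member between yDucts and Ducts, and up to 3 called genes of each other list. The result of 1 of these lists is not reported here. The fit was tested on simulated data. No pair among the 66 pairs of arrays was identical. Promoter windows came from RefSeq, GRCm38.p6. Alternatives covered scaling, filter, probe set choice, array weights, the variance prior, a replicate block and leaving arrays out. The number of arrays limits the precision.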

Additional observations from a re-analysis of the deposited data

Results flagged for a closer look

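In 6 of 126 sets of 4 arrays (42 named and tested members in 3 groups), 1 array stood further from the other 3 than Dixon's criterion for 4 values allows, and chance marks about 1 set in 20. In yDucts this was array B each time. Myl9 read 3.55 on it and 6.16 to 6.44 on the others, Tpm2 6.91 and 8.54 to 8.76, Myo5b 6.89 and 7.50 to 7.56, and Myh1 3.54 and 3.77 to 3.81. In Acini it was array A, where Myo16 read 6.85 against 5.55 to 5.65 and Myo7b 4.24 against 5.66 to 5.95. Without yDucts B, the Myl9 difference from Ducts was 3.49 (adjusted p = 4.6e-05).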

How the results depend on the processing

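Of the values of named members under the alternatives, 718 in yDucts minus Acini kept their direction and side of the threshold, 29 changed sign, 32 lost a call and 8 gained one. In Ducts minus Acini these were 814, 23, 22 and 12, and in yDucts minus Ducts 186, 4, 9 and 10. The causes were not tested, and the number of arrays and the low signal of the muscle members limit these values. The replicate letters did not pair the arrays: deviations of same-lettered arrays correlated at -0.35 to 0.13. With a replicate block, 21 members were higher and 15 lower in yDucts minus Acini, 22 and 17 in Ducts minus Acini, and 3 and 1 in yDucts minus Ducts. Of all genes, 75.1%, 74.6% and 2.59% were called in these comparisons.

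Under the filter at the 50th percentile, 6 of 38 tested members were lower in yDucts and 8 in Ducts than in Acini, where 24.1% and 24.8% of all genes were. Without a filter these were 23 and 25 of 60, where 39.5% and 39.6% of all genes were lower. Cyclic loess gave 51 of the other actomyosin genes higher and 36 lower in yDucts than in Acini, where 27.1% and 36% of all genes were. In yDucts minus Ducts, array weights called 15 members higher and 7 lower and 40 and 24 of the other genes, where 41.2% of all genes were called. Without Ducts A and B these were 9 and 3, and 23 and 9, with 14.6% of all genes. Without Ducts C and D, 1 of the other genes was higher, and with only both groups fitted 5 were lower. Leaving out 1 array at a time gave 1 (without yDucts A) to 4 members higher, 1 to 2 (without Ducts A) lower, and 1 to 6 (without Ducts A) of the other genes higher.

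In yDucts minus Acini, quantile normalization turned Myh14 to -0.73, Myl7 to 0.024, Myo10 to -0.59, Myo15b to -0.64, Myo5b to -0.038 and Myo7b to -0.25. Cyclic loess turned Myh1 to 0.030, Myh14 to -0.88, Myl7 to 0.19, Myo10 to -0.74, Myo15b to -0.62, Myo1d to -0.034, Myo5b to -0.12 and Myo7b to -0.052. Flnc became 0.0575 with arrays centred on their median, 0.12 with the mean of all probe sets, 0.40 with the most variable probe set and 0.0024 with array weights. With the mean and the most variable probe set, Myo15b became -0.039 and -0.33, and Tln1 -0.18 and -0.92. Leaving out 1 array gave Flnc -0.27 to 0.056, Myl7 -0.56 to 0.057 and Myo7b -0.34 to 0.33.

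In Ducts minus Acini, quantile normalization turned Myo10 to -0.60 and Tpm2 to -0.25. Cyclic loess turned Actn4 to -0.0043, Myo10 to -0.76, Myo1e to -0.062, Myo5b to -0.046, Tln1 to -0.20 and Tpm2 to -0.54. Tln1 was -0.22 with the mean and -1.05 with the most variable probe set, and Myo5c was 0.02 with arrays centred on their median. Array weights gave Myl7 -0.41, Myo10 -0.0071, Myo5c 0.48 and Tpm2 -1.36. Without Ducts A and B, Myl7 was -0.64, Myo10 -0.085, Myo5c 0.63 and Tpm2 -1.94. Leaving out 1 array gave Myl7 -0.36 to 0.64, Myo5c -0.47 to 0.20 and Tpm2 -0.60 to 1.25. In yDucts minus Ducts, Myl7 was 0.062 with array weights, 0.29 without Ducts A and B and -0.96 to 0.013 with 1 array left out, and Tpm2 was -1.14 without Ducts C and D.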
